A study of Homo sapiens with 12 samples.

Results

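Histone deacetylases other than HDAC3 were followed in Raji cells, a human Burkitt lymphoma B-cell line. The members are 10 genes, HDAC1, HDAC2, HDAC4, HDAC5, HDAC6, HDAC7, HDAC8, HDAC9, HDAC10 and HDAC11, listed by gene symbol under a rule that holds no measured value, among 60707 genes in the count table; earlier results of these data were known when the list was made. By textbook class, HDAC1, HDAC2 and HDAC8 belong to class I, HDAC4, HDAC5, HDAC7 and HDAC9 to class IIa, HDAC6 and HDAC10 to class IIb, and HDAC11 to class IV. Bulk RNA was sequenced in 12 libraries, 3 in each of 4 groups, all labelled 24 h: GFP-low cells given FX1, GFP-low cells given DMSO, GFP-high cells given FX1 and GFP-high cells given DMSO. FX1 inhibits BCL6, a repressor of transcription, and DMSO is its vehicle. All groups carry the genotype label Smarca4+/+ and come from 1 line, for which the series describes an auxin-inducible degron acting on SMARCA4, an ATPase that powers SWI/SNF remodelling of chromatin. The labels state neither the FX1 dose, nor which groups received auxin, nor how the GFP gate relates to the amount of SMARCA4 protein, so the gates are described here by GFP alone.

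Histone deacetylases remove acetyl groups from lysines, and on histones this generally accompanies transcriptional repression. HDAC1 and HDAC2 are the catalytic subunits of the Sin3, NuRD, CoREST and MiDAC corepressor complexes. Class IIa enzymes have little catalytic activity of their own, bind MEF2 transcription factors and the NCOR corepressors, and leave the nucleus when kinases create binding sites for 14-3-3 proteins. BCL6, which keeps germinal centre B cells from differentiating, binds class IIa enzymes as well as NCOR corepressors, and FX1 occupies the corepressor groove of its BTB domain. The question addressed is how the transcripts of these enzymes differed after FX1 in each gate, and whether class I and class IIa behaved alike.

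Total counts per library lay between 20454028 and 42556661. All 6 B-cell markers examined had counts in every group, with summed levels of 1899 to 2478 CPM (counts relative to the library total). The marker values of this paragraph were not scaled by TMM, while CPM values in later paragraphs and figures were also scaled between libraries by TMM. Markers of other cell types were low: T and NK markers summed to 2.69 to 6.96 CPM with CD8A at 0, myeloid markers to 0.474 to 1.54 CPM with FCGR3B at 0, and epithelial and stromal markers to 7.89 to 18.4 CPM, nearly all from COL1A1, with KRT18 at 0. The share of counts from mitochondrial genes lay between 5.05% and 5.13% in GFP-low FX1, between 4.72% and 4.84% in GFP-low DMSO, between 4.23% and 4.32% in GFP-high FX1, and between 7.84% and 7.91% in GFP-high DMSO libraries. The labels do not state that replicate libraries came from separate cultures, so the tests measure the spread among these libraries, which may be technical. In bulk RNA, fewer cells that contain a transcript and less of it per cell cannot be told apart.

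Fold changes moved with the GC content of transcripts. Across 10430 genes, the Spearman correlation of GC content with the log2 fold change was 0.499 for FX1 against DMSO in GFP-low cells and 0.293 in GFP-high cells. It was 0.685 for GFP-low against GFP-high cells under FX1 and 0.515 under DMSO. Members differ widely in this property, from a transcript GC content of 38.2% for HDAC2 to 66.9% for HDAC10. Values from which each library's dependence on transcript GC content and length was subtracted (the GC trend removed) are therefore given beside the members' fold changes where they alter a call or move the value by over 1.5 times.

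HDAC1 was the most abundant member in every group. Measured per length, as TPM (counts per merged exon length, scaled to a fixed total in each library), HDAC1 averaged 221 TPM in GFP-low FX1, 226 TPM in GFP-low DMSO, 214 TPM in GFP-high FX1 and 190.4 TPM in GFP-high DMSO libraries. HDAC2 came next and HDAC7 after it in all 4 groups, and HDAC11 was last. The middle of the order changed with treatment. HDAC5 ranked 4 in GFP-low FX1 and 5 in GFP-high FX1 libraries but 6 in both DMSO groups, while HDAC9 ranked 4 in 3 groups and 6 in GFP-low FX1. On this length the 3-library ranges of neighbours in the order overlapped for HDAC10 and HDAC4 in both DMSO groups and for HDAC8 and HDAC10 in GFP-high FX1. The middle of the order also depended on the length used. With the longest transcript as length, an alternative added after the values were seen, HDAC5 ranked 5 in GFP-low FX1 and 7 in the other 3 groups, so its rank no longer differed with treatment in GFP-high cells. HDAC9 then ranked 7 in GFP-low FX1 and 4 in the other groups. On that length HDAC6, HDAC5 and HDAC8 overlapped in GFP-low FX1, HDAC9 and HDAC6 in GFP-low DMSO, and HDAC10 and HDAC4 in GFP-high FX1.

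**Figure D1:**
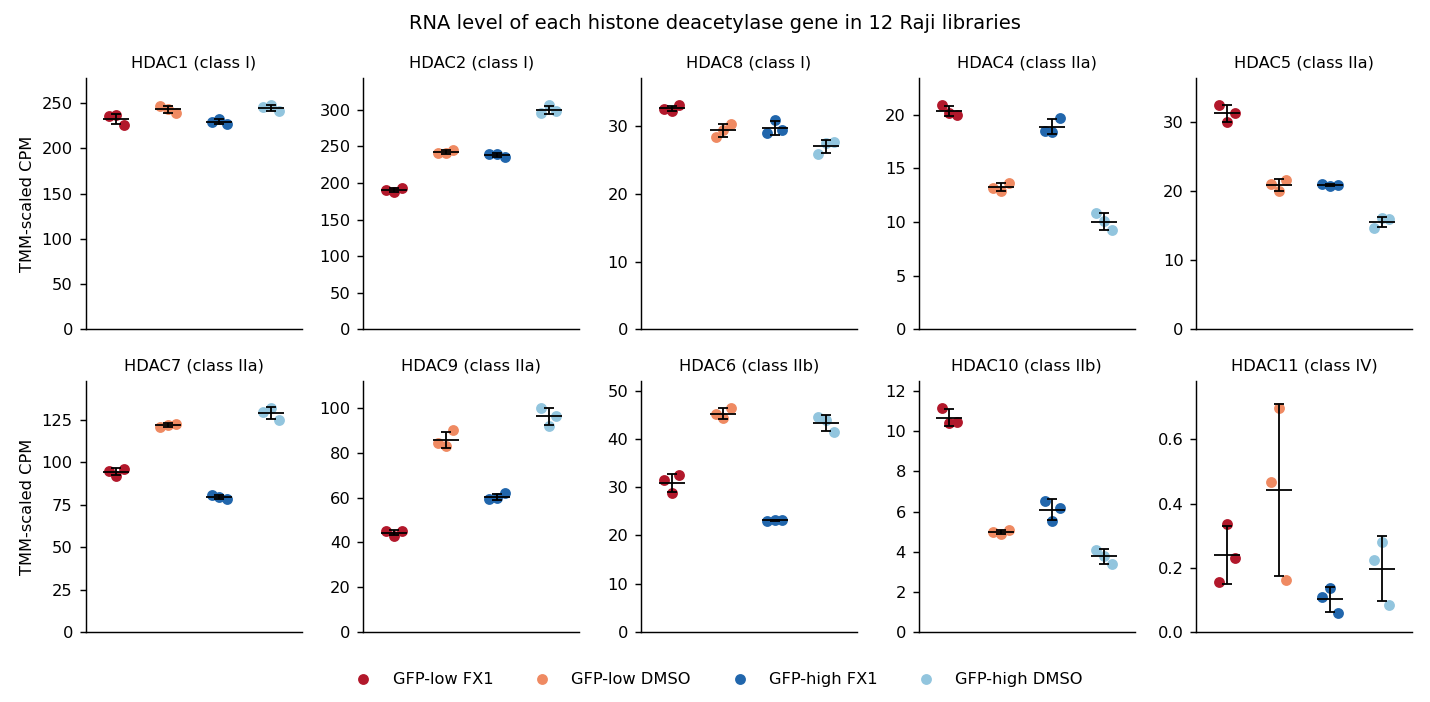
Level of each of the 10 histone deacetylases in each library, in TMM-scaled CPM on linear axes that start at 0. Points are libraries, horizontal lines with bars are means ± SD of 3 libraries, and the groups run GFP-low FX1, GFP-low DMSO, GFP-high FX1, GFP-high DMSO from left to right. HDAC4, HDAC5 and HDAC10 stand higher and HDAC2, HDAC6, HDAC7 and HDAC9 lower with FX1 than with DMSO in both gates, while HDAC1 stays between 226 and 248 CPM.

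With FX1, 9 of the 10 members changed in each gate, 4 of them up and 5 down, at an adjusted p under 0.05 in edgeR's quasi-likelihood test. The background was high: in GFP-low cells 68% of the 17859 genes tested were called, 33.7% higher and 34.3% lower, and in GFP-high cells 68.4% were called, 33.8% higher and 34.6% lower. Read against that background, the sizes of the changes are more informative than the count. Against a floor of 1.5-fold (edgeR's glmTreat), 20.2% of genes were called in GFP-low cells, 9.18% higher and 11% lower. At that floor HDAC10 was higher and HDAC9 lower, which makes 2 members of 10. With the GC trend removed the HDAC10 rise was log2 0.54, less than 1.5-fold. HDAC9, HDAC7 and HDAC6 then stood at -0.80, -0.74 and -0.85. In GFP-high cells 20.6% of genes passed the floor, 8.14% higher and 12.4% lower. HDAC4 was higher and HDAC7, HDAC9 and HDAC6 were lower, which makes 4 members of 10. With the GC trend removed the HDAC9 value there was log2 -0.61. In TPM, which is not TMM-scaled, HDAC7 and HDAC9 fell by less than 1.5-fold in GFP-high cells (log2 -0.43 and -0.41). HDAC6 (-0.64), HDAC4 (1.17), HDAC5 (0.69) and HDAC10 (0.96) moved by more than 1.5-fold in TPM. The median log2 fold change over all genes was -0.01 in both gates.

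**Figure D2:**
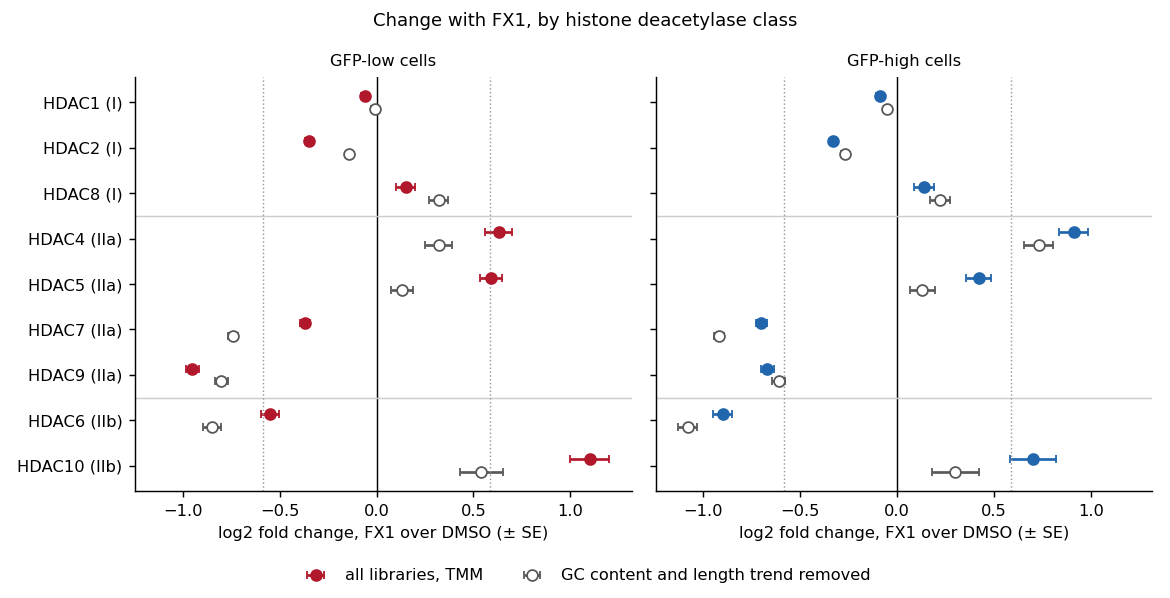
Log2 fold change of FX1 over DMSO for 9 members, ordered by class, in GFP-low (left) and GFP-high cells (right). Bars are 1 standard error derived from edgeR's F statistic, and dotted lines stand at 1.5-fold. HDAC11, with few counts, is not drawn. Filled points are the values as tested and open points those with the GC content and length trend removed. The filled class I values lie between -0.35 and 0.15, and the filled class IIa values between -0.95 and 0.91.

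Class I members changed by less than 1.5-fold. HDAC1 (ENSG00000116478.12, hg38 chromosome 1, 32292083 to 32333635, plus strand) measured 235, 236 and 226 CPM in GFP-low FX1 libraries, against 246, 244 and 239 CPM in GFP-low DMSO libraries. In GFP-high cells it measured 229, 232 and 227 CPM with FX1, against 246, 248 and 241 CPM with DMSO. On this scale every FX1 library lay below every DMSO library of its gate, by a small margin. In TPM, which is not TMM-scaled, the direction turned in GFP-high cells, with 211 to 217 TPM under FX1, against 188 to 192 TPM under DMSO. The log2 fold change was -0.06 ± 0.018 (SE, adjusted p = 0.00253, edgeR) in GFP-low cells and -0.09 ± 0.018 (adjusted p = 1.64e-06, edgeR) in GFP-high cells. The call in GFP-low cells was lost without GFP-low FX1 replicate 3 (log2 -0.04, adjusted p = 0.11, edgeR) and with the GC trend removed (log2 -0.01, adjusted p = 0.584, edgeR), and in GFP-high cells the value with the trend removed was -0.05 (adjusted p = 0.00512, edgeR).

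HDAC2, the close paralog of HDAC1 that shares its complexes (ENSG00000196591.12, hg38 chromosome 6, 113933028 to 114011308, minus strand), fell with FX1 in both gates. In GFP-low cells it measured 191, 187 and 194 CPM with FX1, against 240.4, 241 and 245 CPM with DMSO. In the GFP-high gate it measured 239.96, 239.7 and 235 CPM with FX1, against 296, 306 and 298 CPM with DMSO. On this scale the 4 groups made 3 steps: GFP-low FX1 was lowest, GFP-low DMSO and GFP-high FX1 lay between, and GFP-high DMSO was highest. In TPM the upper step was small. HDAC2 averaged 46.8 TPM in GFP-low FX1, 58.3 TPM in GFP-low DMSO, 57.4 TPM in GFP-high FX1 and 60.3 TPM in GFP-high DMSO libraries. The TPM ratio of FX1 to DMSO was log2 -0.32 in GFP-low and -0.07 in GFP-high cells, so the size of the GFP-high fall depended on the scaling. This was not particular to HDAC1 and HDAC2. In GFP-high cells the TPM ratios of the other called members also lay above their tested values, as for HDAC7 (-0.43 against -0.70) and HDAC4 (1.17 against 0.91). HDAC2 fell by 21.3% in GFP-low cells (log2 -0.35 ± 0.019 SE, adjusted p = 1.48e-46, edgeR) and by 20.7% in GFP-high cells (log2 -0.33 ± 0.018, adjusted p = 1.29e-47, edgeR). With the GC trend removed the fall stayed in both gates but was smaller in GFP-low cells, at log2 -0.14 (adjusted p = 5.69e-12, edgeR) against -0.27 in GFP-high cells (adjusted p = 1.1e-37, edgeR).

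HDAC8, the X-linked deacetylase of the cohesin subunit SMC3 (ENSG00000147099.21, hg38 chromosome X, 72329516 to 72573101, minus strand), was the class I member that rose. It measured 32.5, 32.3 and 33.1 CPM in GFP-low FX1 libraries, against 28.3, 29.5 and 30.3 CPM in GFP-low DMSO libraries. The GFP-high values were 29.003, 31.0 and 29.4 CPM with FX1, against 26.0, 27.5 and 27.6 CPM with DMSO. The ranges did not overlap in either gate. The rise was log2 0.15 ± 0.050 (SE, adjusted p = 0.00529, edgeR) in GFP-low cells and 0.14 ± 0.052 (adjusted p = 0.0156, edgeR) in GFP-high cells. Both calls were lost in some fits that left out 1 library. In GFP-low cells the adjusted p was 0.054, 0.0558 and 0.0545 in edgeR without GFP-high DMSO replicate 1, 2 or 3 (log2 0.10 to 0.11). The SE stayed at 0.050 in these fits, and HDAC1 moved the same way, from log2 -0.06 to -0.10. This was a shift in scaling common to the members, whichever of these libraries was left out. In GFP-high cells it was 0.0636 without FX1 replicate 2 (log2 0.12) and 0.0734 without DMSO replicate 1 (log2 0.11, edgeR). Once the GC trend was removed, the rise was larger, at log2 0.32 in GFP-low cells (adjusted p = 3.02e-09, edgeR) and 0.22 in GFP-high cells (adjusted p = 5.75e-05, edgeR).

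HDAC3, the class I enzyme of the NCOR complexes, is no member here: its log2 fold change was 0.08 ± 0.036 in GFP-low cells (SE, adjusted p = 0.0357, edgeR) and -0.06 ± 0.037 in GFP-high cells (adjusted p = 0.166, edgeR). With the GC trend removed these were 0.00 (adjusted p = 0.954, edgeR) and -0.10 (adjusted p = 0.0165, edgeR).

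Class IIa split into a pair that rose and a pair that fell with FX1. Upstream sequences are shown for HDAC4, the class IIa member that rose most in both gates, for HDAC9, which fell most in GFP-low cells, and for HDAC8, the member whose upstream sequence held a BCL6 motif, so that base composition and motifs can be compared. The sequences are the 250 bases before the outermost RefSeq transcript start (GRCh38.p14), printed 5′ to 3′ on the gene's strand, with motif matches in capitals: HDAC4 at chr2:239401650-239401899 (minus strand), HDAC9 at chr7:18086575-18086824 (plus strand) and HDAC8 at chrX:72572844-72573093 (minus strand).
HDAC4: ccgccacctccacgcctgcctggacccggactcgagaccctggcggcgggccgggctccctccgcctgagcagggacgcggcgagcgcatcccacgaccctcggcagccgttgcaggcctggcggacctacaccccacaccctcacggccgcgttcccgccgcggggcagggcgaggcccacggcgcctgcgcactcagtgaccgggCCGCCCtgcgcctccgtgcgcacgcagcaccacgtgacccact
HDAC9: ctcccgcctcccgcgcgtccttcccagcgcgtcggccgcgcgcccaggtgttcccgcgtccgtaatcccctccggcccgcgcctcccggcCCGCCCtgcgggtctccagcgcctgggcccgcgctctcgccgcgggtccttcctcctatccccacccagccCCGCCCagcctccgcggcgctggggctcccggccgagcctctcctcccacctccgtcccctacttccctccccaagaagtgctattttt
HDAC8: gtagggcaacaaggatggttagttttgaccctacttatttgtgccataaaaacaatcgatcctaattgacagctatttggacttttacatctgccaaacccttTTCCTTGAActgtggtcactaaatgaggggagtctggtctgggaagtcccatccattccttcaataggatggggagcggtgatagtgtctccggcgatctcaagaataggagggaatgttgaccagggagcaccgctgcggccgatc
The motifs searched on both strands were TTCCTNGAA (BCL6), CTA followed by any 4 bases and TAG (MEF2) and GGGCGG (the GC box bound by Sp1), and each sequence shown holds matches of a single motif, so none overlap. They occur in 1.37%, 2.36% and 42.6% of 35116 RefSeq upstream sequences of this length. The capitals in HDAC4 and HDAC9 are GC boxes read on the opposite strand, 1 in HDAC4 and 2 in HDAC9, and those in HDAC8 are its match to the BCL6 letters. The HDAC4 and HDAC9 sequences are rich in GC, at 76.8% and 75.2% with 33 and 32 CpG dinucleotides, and the HDAC8 sequence holds 48.0% and 7, against a median of 58.0% and 11 over all upstream sequences. Of the 19 starts of the 9 members with an entry, those of HDAC8 alone held the BCL6 letters and none held the MEF2 letters. A match is a description of these letters, not a measured binding site.

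HDAC4 (ENSG00000068024.17, hg38 chromosome 2, 239048168 to 239401654, minus strand) measured 20.9, 20.2 and 20.02 CPM in GFP-low FX1 libraries, against 13.2, 12.9 and 13.6 CPM in GFP-low DMSO libraries. In GFP-high cells it measured 18.5, 18.4 and 19.7 CPM with FX1, against 10.8, 10.1 and 9.22 CPM with DMSO. All 6 FX1 libraries lay above all 6 DMSO libraries. The rise was 1.54-fold in GFP-low cells (log2 0.63 ± 0.068 SE, adjusted p = 9.09e-17, edgeR) and 1.88-fold in GFP-high cells (log2 0.91 ± 0.073, adjusted p = 5.32e-27, edgeR). It passed the 1.5-fold floor in GFP-high cells (adjusted p = 1.13e-05, glmTreat) and not in GFP-low cells (adjusted p = 0.382, glmTreat), and with the GC trend removed the rise in GFP-low cells was log2 0.32 (adjusted p = 1.58e-05, edgeR). The antisense gene HDAC4-AS1, which overlaps 0.755% of HDAC4's exon bases, had 8 to 43 counts per library.

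HDAC5 (ENSG00000108840.16, hg38 chromosome 17, 44076746 to 44123702, minus strand), like HDAC4 a repressor of MEF2 target genes, measured 32.4, 30.0 and 31.3 CPM in GFP-low FX1 libraries, against 21.1, 20.02 and 21.6 CPM in GFP-low DMSO libraries. In the GFP-high gate it measured 21.1, 20.8 and 20.9 CPM with FX1, against 14.7, 16.1 and 15.9 CPM with DMSO. Within each gate the ranges were apart, and the GFP-high FX1 libraries stood at the level of the GFP-low DMSO libraries. HDAC5 rose 1.502-fold in GFP-low cells (log2 0.59 ± 0.056 SE, adjusted p = 8.39e-21, edgeR) and 1.34-fold in GFP-high cells (log2 0.42 ± 0.063, adjusted p = 4.54e-10, edgeR). Its transcript GC content is 61.2%, and with the GC trend removed little of the rise was left: log2 0.13 in GFP-low cells (adjusted p = 0.0325, edgeR), and 0.13 in GFP-high cells, where the call was lost (adjusted p = 0.0558, edgeR).

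HDAC7, a class IIa enzyme with known roles in lymphocyte development (ENSG00000061273.18, hg38 chromosome 12, 47782722 to 47833132, minus strand), was the most abundant of its class and fell. It measured 94.7, 92.1 and 96.1 CPM in GFP-low FX1 libraries, against 121, 122 and 123 CPM in GFP-low DMSO libraries. The GFP-high values were 80.5, 79.5 and 78.6 CPM with FX1, against 129.7, 132 and 125 CPM with DMSO. All 6 FX1 libraries lay below all 6 DMSO libraries. HDAC7 fell by 22.7% in GFP-low cells (log2 -0.37 ± 0.027 SE, adjusted p = 5.52e-31, edgeR) and by 38.4% in GFP-high cells (log2 -0.70 ± 0.028, adjusted p = 3.44e-68, edgeR), where it passed the floor (adjusted p = 4.58e-05, glmTreat). With the GC trend removed the fall was larger in GFP-low cells, at log2 -0.74 (adjusted p = 1.11e-79, edgeR), and log2 -0.92 in GFP-high cells (adjusted p = 2.72e-98, edgeR). An unnamed gene on the opposite strand, ENSG00000268069, covers 9.7% of HDAC7's exon bases and had 6 to 35 counts per library.

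HDAC9 (ENSG00000048052.23, hg38 chromosome 7, 18086949 to 19002416, plus strand), also a MEF2 corepressor, had the largest fall of the called members in GFP-low cells. It measured 45.1, 42.99 and 44.9 CPM in GFP-low FX1 libraries, against 84.5, 82.98 and 90.0 CPM in GFP-low DMSO libraries. In GFP-high cells it measured 59.4, 59.6 and 61.9 CPM with FX1, against 100.01, 92.1 and 96.5 CPM with DMSO. The 4 groups did not overlap. HDAC9 fell by 48.2% in GFP-low cells (log2 -0.95 ± 0.035 SE, adjusted p = 1.19e-73, edgeR) and fell by 37.1% in GFP-high cells (log2 -0.67 ± 0.033, adjusted p = 4.59e-53, edgeR). Both falls passed the floor (adjusted p = 5.99e-21 and 0.00713, glmTreat).

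Class IIb also split. HDAC6, the cytoplasmic deacetylase of tubulin and HSP90 (ENSG00000094631.21, hg38 chromosome X, 48801377 to 48824982, plus strand), measured 31.5, 28.8 and 32.5 CPM in GFP-low FX1 libraries, against 45.1, 44.2 and 46.4 CPM in GFP-low DMSO libraries. In the GFP-high gate it measured 23.0, 23.1 and 23.2 CPM with FX1, against 44.5, 43.9 and 41.4 CPM with DMSO. The FX1 libraries of both gates lay below every DMSO library, and the DMSO ranges of the gates overlapped. HDAC6 fell by 31.7% in GFP-low cells (log2 -0.55 ± 0.046 SE, adjusted p = 3.4e-25, edgeR) and fell by 46.6% in GFP-high cells (log2 -0.90 ± 0.049, adjusted p = 4.64e-47, edgeR). The fall passed the floor in GFP-high cells alone (adjusted p = 4.03e-10, glmTreat). Once the GC trend was removed, it was log2 -0.85 in GFP-low cells (adjusted p = 1.56e-48, edgeR).

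HDAC10, a polyamine deacetylase (ENSG00000100429.18, hg38 chromosome 22, 50245183 to 50251405, minus strand), rose. It measured 11.2, 10.4 and 10.5 CPM in GFP-low FX1 libraries, against 4.99, 4.88 and 5.09 CPM in GFP-low DMSO libraries. The GFP-high values were 6.55, 5.53 and 6.19 CPM with FX1, against 4.11, 3.79 and 3.40 CPM with DMSO. Ranges were apart in both gates. The rise was 2.15-fold in GFP-low cells (log2 1.10 ± 0.10 SE, adjusted p = 7.34e-21, edgeR; past the floor, adjusted p = 1.31e-06, glmTreat) and 1.63-fold in GFP-high cells (log2 0.70 ± 0.12, adjusted p = 6.24e-08, edgeR). HDAC10 has the highest transcript GC content of the members, and with the GC trend removed the rise was log2 0.54 in GFP-low cells (adjusted p = 1.7e-06, edgeR) and 0.30 in GFP-high cells (adjusted p = 0.0231, edgeR). The count is uncertain: 55.8% of its exon bases are shared on the same strand with MAPK12, a p38 kinase gene with 1432 to 5840 counts per library. MAPK12 rose too, by log2 0.88 ± 0.030 in GFP-low cells (SE, adjusted p = 5.47e-76, edgeR) and 0.42 ± 0.033 in GFP-high cells (adjusted p = 2e-27, edgeR). With the GC trend removed, the MAPK12 value was 0.28 in GFP-low cells (adjusted p = 6.08e-18, edgeR). In GFP-high cells it was 0.01 and the call was lost (adjusted p = 0.864, edgeR). Its part in the HDAC10 values was not tested.

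HDAC11, the class IV enzyme and a lysine fatty-acid deacylase (ENSG00000163517.15, hg38 chromosome 3, 13479724 to 13506424, plus strand), was barely detected. It had 7, 10 and 5 counts in GFP-low FX1 libraries, against 13, 22 and 4 counts in GFP-low DMSO libraries. In GFP-high cells it had 4, 4 and 2 counts with FX1, against 5, 9 and 2 counts with DMSO. The ranges overlapped in both gates and no change passed the test (log2 -0.96 ± 0.51 SE, adjusted p = 0.0852 in GFP-low cells, and log2 -0.99 ± 0.69, adjusted p = 0.195 in GFP-high cells, edgeR). In GFP-low cells a call appeared without GFP-low DMSO replicate 3 (log2 -1.32, adjusted p = 0.028, edgeR) and with the GC trend removed (log2 -1.35, adjusted p = 0.014, edgeR).

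Set side by side, the classes as tested differed in the span of their FX1 values and not in the share of members called. In GFP-low cells all 3 class I and all 4 class IIa members were called, with log2 fold changes from -0.35 to 0.15 in class I and from -0.95 to 0.63 in class IIa. In GFP-high cells all 7 were called again, from -0.33 to 0.14 in class I and from -0.70 to 0.91 in class IIa. No class I member passed the 1.5-fold floor in either gate, against 1 of 4 class IIa members in GFP-low cells and 3 of 4 in GFP-high cells. The class IIa members beyond 1.5-fold depended on the processing. In TPM, HDAC7 and HDAC9 fell by log2 0.43 and 0.41 in GFP-high cells, less than 1.5-fold, and HDAC5 rose by 0.69. With the GC trend removed, HDAC7 fell by log2 0.74 in GFP-low cells. Over all genes, 68% were called and 20.2% passed the floor in GFP-low cells, and 68.4% and 20.6% in GFP-high cells. The class IIa medians lay near 0, at 0.11 in GFP-low and -0.13 in GFP-high cells, because 2 members rose and 2 fell. With the GC trend removed, class IIa spanned -0.80 to 0.32 in GFP-low cells and -0.92 to 0.73 in GFP-high cells, and class I spanned -0.14 to 0.32 and -0.27 to 0.22. The class IIa medians were then further below 0, at -0.30 in GFP-low and -0.24 in GFP-high cells, against -0.01 and -0.05 in class I. In that fit 2 of 3 class I and 4 of 4 class IIa members were called in GFP-low cells. In GFP-high cells 3 of 3 and 3 of 4 were called. These are descriptions of 3 and 4 genes, and no difference between classes was tested.

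In TPM, both the make-up of class IIa and its total changed with FX1. The total averaged 66.5 TPM in GFP-low FX1, against 77.5 TPM in GFP-low DMSO libraries. In GFP-high cells it averaged 57.9 TPM with FX1, against 65.8 TPM with DMSO. Class IIa held 19.6% ± 0.539 of the summed class I and IIa TPM in GFP-low FX1 libraries, against 21.1% ± 0.476 in GFP-low DMSO libraries (SD, n = 3 each). In GFP-high cells class IIa held 17.3% ± 0.219 with FX1, against 20.6% ± 0.177 with DMSO (SD, n = 3 each). Lower shares stood with FX1 in both gates, and the ranges did not overlap. Within class IIa, HDAC4 and HDAC5 held larger parts of the TPM with FX1, and HDAC7 and HDAC9 smaller ones. The shares and ratios of this paragraph were not computed with the GC trend removed, so they may depend on it. With the trend removed, the log2 changes with FX1 in GFP-high cells were -0.92 for HDAC7, -0.61 for HDAC9, 0.13 for HDAC5 and 0.73 for HDAC4. In GFP-low cells they were -0.74, -0.80, 0.13 and 0.32 in that order. HDAC5 made up 23.2% ± 0.439 of class IIa TPM in GFP-low FX1, against 13.1% ± 0.332 in GFP-low DMSO libraries, and 17.5% ± 0.0944 in GFP-high FX1, against 9.58% ± 0.552 in GFP-high DMSO libraries (SD, n = 3 each). HDAC9 made up 14.5% ± 0.0394 in GFP-low FX1, against 23.7% ± 0.557 in GFP-low DMSO libraries, and 22.3% ± 0.448 in GFP-high FX1, against 26.1% ± 1.115 in GFP-high DMSO libraries (SD, n = 3 each). HDAC7 remained the largest part in every group, between 51.1% and 60.8% on average. The ratio of HDAC9 to HDAC4, chosen after the values were seen, was 1.69 in GFP-low FX1, against 5.01 in GFP-low DMSO libraries, and 2.47 in GFP-high FX1, against 7.46 in GFP-high DMSO libraries. In class I, the ratio of HDAC1 to HDAC2 was 4.72 in GFP-low FX1, against 3.88 in GFP-low DMSO libraries, and 3.72 in GFP-high FX1, against 3.16 in GFP-high DMSO libraries.

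**Figure D3:**
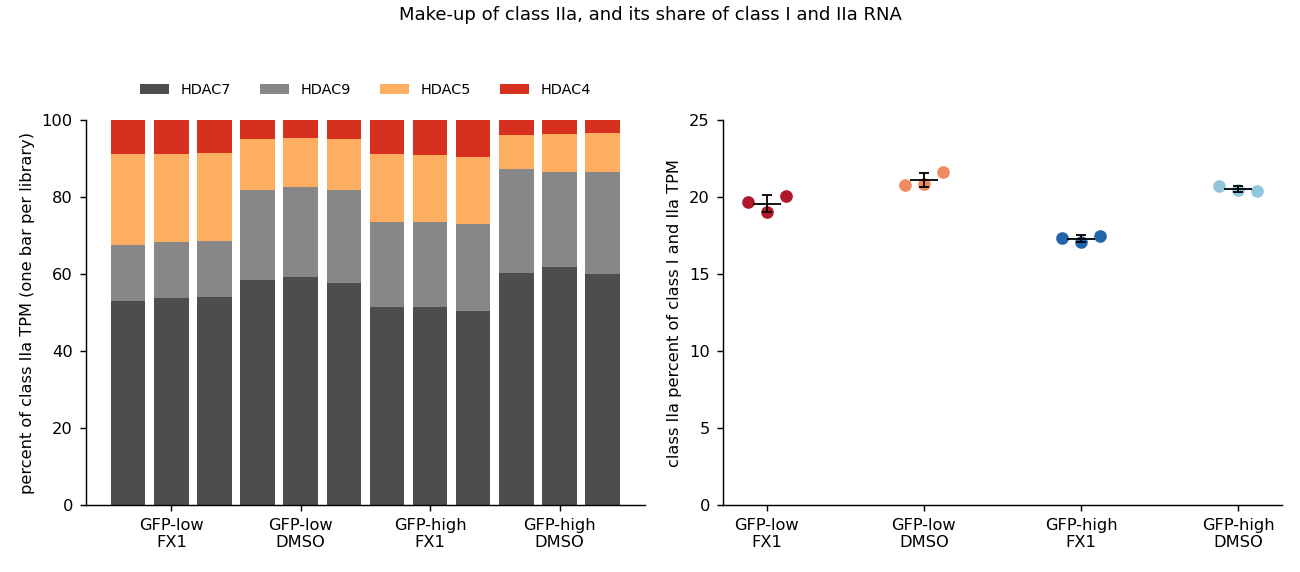
Left, the share of each class IIa member in the class IIa TPM, with a stacked bar for each library; right, the class IIa share of class I and IIa TPM, with points for libraries and lines for mean ± SD of 3 libraries. Class IIa averages 17.3% to 21.1% of class I and IIa TPM, and within it HDAC5 and HDAC4 take larger parts and HDAC9 and HDAC7 smaller parts with FX1 than with DMSO in each gate. The GC trend is not removed from these TPM values.

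Between the GFP gates under FX1, 7 of 10 members differed, 5 higher and 2 lower in GFP-low cells, against 56.9% of all genes called, 30.2% higher and 26.7% lower. Under DMSO, 6 members differed, 3 higher and 3 lower, against 46.1% of all genes, 21.7% higher and 24.4% lower. None passed the 1.5-fold floor under either treatment (glmTreat), against 4.08% of genes under FX1, 2.03% higher and 2.05% lower, and 1.11% under DMSO. Without GFP-high FX1 replicate 1 the number of members under FX1 was 1. HDAC2 was lower in GFP-low cells by 20.1% under FX1 (log2 -0.32 ± 0.018 SE, adjusted p = 1.93e-43, edgeR) and by 19.5% under DMSO (log2 -0.31 ± 0.018, adjusted p = 6.32e-42, edgeR), and with the GC trend removed by log2 -0.07 (adjusted p = 0.000296, edgeR) and -0.20 (adjusted p = 2.44e-23, edgeR). HDAC5 was higher in GFP-low cells by log2 0.58 ± 0.054 under FX1 (adjusted p = 2.36e-21, edgeR) and 0.42 ± 0.065 under DMSO (adjusted p = 3.87e-09, edgeR), and by 0.20 under both with the trend removed (adjusted p = 0.000793 and 0.00643, edgeR). HDAC9 was lower, by log2 -0.44 ± 0.036 under FX1 (adjusted p = 2.28e-26, edgeR) and -0.16 ± 0.032 under DMSO (adjusted p = 3.04e-06, edgeR). With the trend removed these were -0.26 (adjusted p = 2.83e-11, edgeR) and -0.07, no longer a call (adjusted p = 0.0844, edgeR).

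The other members differed between gates in a way that depended on treatment or on the GC trend. HDAC4 was higher in GFP-low cells under DMSO (log2 0.40 ± 0.080 SE, adjusted p = 4.43e-06, edgeR) and not called under FX1 (log2 0.11 ± 0.062, adjusted p = 0.114, edgeR), where removing the trend turned it to -0.15 (adjusted p = 0.0397, edgeR). HDAC7 was higher in GFP-low cells under FX1 (log2 0.24 ± 0.028, adjusted p = 3.1e-15, edgeR) and slightly lower under DMSO (log2 -0.08 ± 0.027, adjusted p = 0.00614, edgeR). The first turned to -0.06 with the trend removed (adjusted p = 0.0679, edgeR), and the second became -0.24 (adjusted p = 1.49e-16, edgeR) and was lost without GFP-high DMSO replicate 2 (log2 -0.06, adjusted p = 0.0856, edgeR). HDAC6 was higher in GFP-low cells under FX1 (log2 0.42 ± 0.050, adjusted p = 2.7e-14, edgeR), at 0.17 with the trend removed (adjusted p = 0.00199, edgeR), and not called under DMSO (log2 0.06 ± 0.045, adjusted p = 0.259, edgeR), where the value turned to -0.06 with the trend removed (adjusted p = 0.311, edgeR). HDAC10 was higher by log2 0.81 ± 0.098 under FX1 (adjusted p = 6.1e-14, edgeR) and 0.41 ± 0.13 under DMSO (adjusted p = 0.00526, edgeR), and with the trend removed by 0.33 (adjusted p = 0.0023, edgeR) and 0.09 (adjusted p = 0.599, edgeR). HDAC8 was higher by log2 0.13 ± 0.049 under FX1 (adjusted p = 0.0146, edgeR), a call lost without GFP-high FX1 replicate 1 or without any 1 of the GFP-high DMSO libraries (log2 0.08 to 0.11, adjusted p = 0.0732 to 0.135, edgeR). Under DMSO it stood at log2 0.12 ± 0.053 (adjusted p = 0.0616, edgeR) and was called without GFP-low DMSO replicate 1 (log2 0.14, adjusted p = 0.0372, edgeR). With the trend removed HDAC8 was higher in GFP-low cells under both treatments, by 0.34 under FX1 (adjusted p = 1.61e-10, edgeR) and 0.24 under DMSO (adjusted p = 3.86e-05, edgeR). HDAC1 was called under neither treatment (log2 0.02 ± 0.018, adjusted p = 0.286 under FX1, and -0.01 ± 0.019, adjusted p = 0.638 under DMSO, edgeR), and with the trend removed it was 0.08 under FX1 (adjusted p = 1.77e-05, edgeR) and 0.04 under DMSO (adjusted p = 0.0614, edgeR). HDAC11 was not called either (adjusted p = 0.114 under FX1 and 0.0722 under DMSO, edgeR), although it was under DMSO without GFP-low DMSO replicate 3 (log2 1.51, adjusted p = 0.0251, edgeR). In TPM the order under DMSO was the other way for HDAC7, at 45.3 TPM in GFP-low and 40.003 TPM in GFP-high cells, for HDAC9, at 18.3 TPM and 17.2 TPM, and for HDAC1, at 226 TPM and 190.4 TPM in these gates. For HDAC2 the TPM ratio of the gates under DMSO was only log2 -0.05, against -0.30 under FX1.

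**Figure D4:**
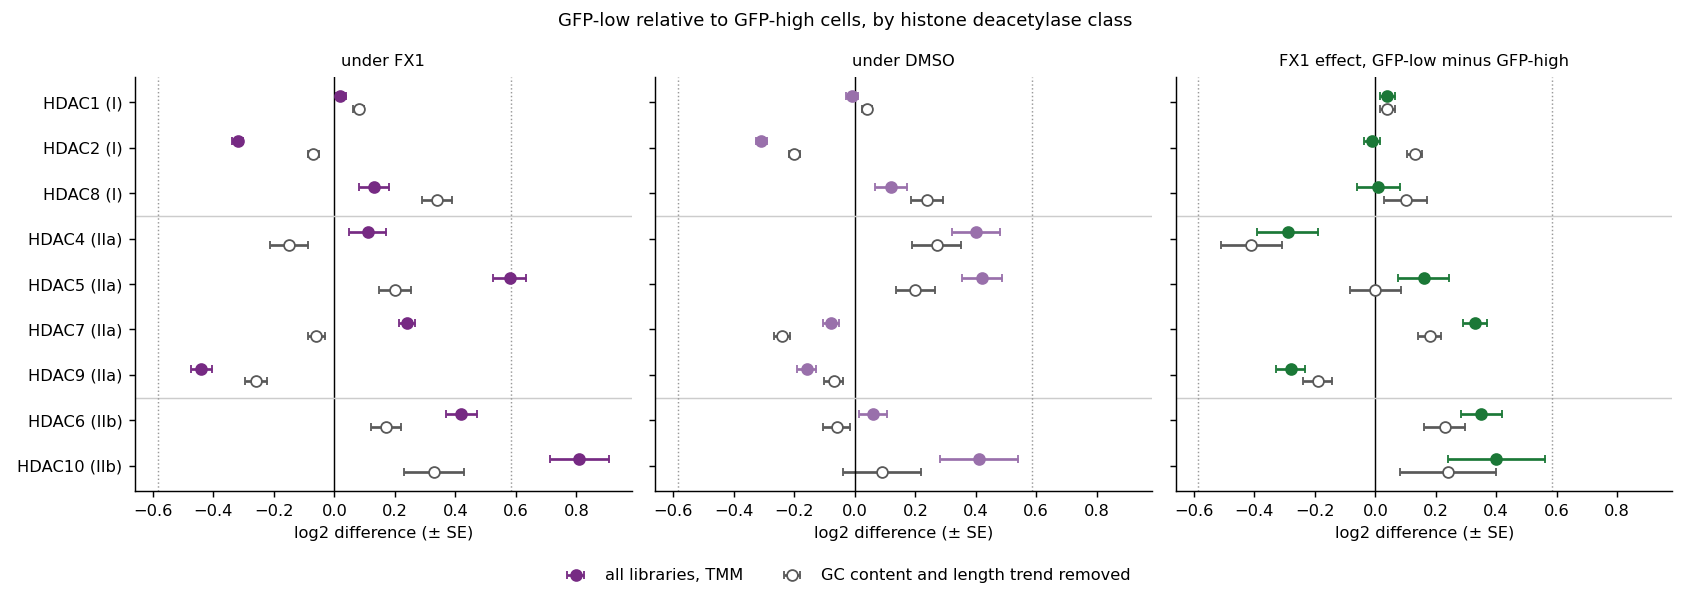
Log2 fold change of GFP-low over GFP-high cells for 9 members under FX1 (left) and under DMSO (middle), and the FX1 effect in GFP-low minus that in GFP-high cells (right). Bars are 1 standard error derived from edgeR's F statistic, and dotted lines stand at 1.5-fold. HDAC11 is not drawn. Filled points, in a colour for each panel, are the values as tested and open points those with the GC content and length trend removed. HDAC2 and HDAC9 lie below 0 and HDAC5 and HDAC10 above 0 under both treatments, and the open points of HDAC4 and HDAC7 lie on the other side of 0 from the filled ones under FX1.

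The FX1 effect itself differed between gates for 5 members, against 31.3% of all genes called in the test of the difference, 14.8% higher and 16.5% lower. The values of this comparison are the FX1 effect in GFP-low cells minus that in GFP-high cells. HDAC6 (0.35 ± 0.068 SE, adjusted p = 2.88e-06, edgeR) and HDAC7 (0.33 ± 0.039, adjusted p = 7.23e-14, edgeR) fell less in GFP-low cells, and HDAC9 fell more there (-0.28 ± 0.048, adjusted p = 2.43e-07, edgeR). HDAC4 rose less in GFP-low cells (-0.29 ± 0.10, adjusted p = 0.0185, edgeR), a call lost without GFP-high FX1 replicate 3 (-0.26, adjusted p = 0.0599, edgeR). With the trend removed these 4 were 0.23, 0.18, -0.19 and -0.41 and were still called. The TPM ratios of FX1 to DMSO in GFP-low and GFP-high cells were log2 -0.52 and -0.64 for HDAC6. For HDAC7 they were -0.34 and -0.43, for HDAC9 -0.93 and -0.41, and for HDAC4 0.65 and 1.17. The sizes of these gate differences therefore depended on the scaling. HDAC10 rose more in GFP-low cells (0.40 ± 0.16, adjusted p = 0.0461, edgeR). That call was lost in 10 of 12 fits that left out 1 library (0.30 to 0.46 over all 12, adjusted p = 0.0322 to 0.209, edgeR), the exceptions being those without GFP-low FX1 replicate 3 or without GFP-high FX1 replicate 1, and with the trend removed (0.24, adjusted p = 0.298, edgeR). No class I member was called (-0.01 to 0.04), but with the trend removed the HDAC2 value turned to 0.13 (adjusted p = 6.33e-06, edgeR), and that of HDAC8 was 0.10 (adjusted p = 0.357, edgeR). Without GFP-high DMSO replicate 2 the HDAC2 value was -0.07 and called (adjusted p = 0.0337, edgeR). No member passed the 1.5-fold floor in this test, against 0.846% of genes, 0.37% higher, and the number of members called was 3 without GFP-high FX1 replicate 3. HDAC5 was not called (0.16 ± 0.085, adjusted p = 0.134, edgeR; -0.001 with the trend removed), nor was HDAC11 (0.03, adjusted p = 0.979, edgeR; -0.11 with the trend removed).

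Partners of class I enzymes moved in both directions with FX1. Of 15 Sin3 complex genes, 4 rose and 7 fell in GFP-low cells, and 4 rose and 8 fell in GFP-high cells (6 and 8, then 5 and 9, with the GC trend removed). The scaffold SIN3B measured 93.4 ± 1.24 CPM in GFP-low FX1, against 53.9 ± 0.614 CPM in GFP-low DMSO libraries (SD, n = 3 each; log2 0.79, adjusted p = 4.63e-64, edgeR), a log2 change of 0.37 with the trend removed. ING2, a PHD-finger subunit that reads methylated histone H3, measured 13.2 ± 0.0289 CPM in GFP-high FX1, against 26.8 ± 1.54 CPM in GFP-high DMSO libraries (SD, n = 3 each; log2 -1.02, adjusted p = 1.5e-37, edgeR), and its log2 fold change was -0.68 in GFP-low cells (adjusted p = 3.31e-17, edgeR). BRMS1 rose by log2 0.67 in GFP-high cells (adjusted p = 1.58e-24, edgeR). Of 11 NuRD genes tested, 8 rose and 2 fell in GFP-low cells, with a median log2 fold change of 0.22, and 6 rose and 3 fell in GFP-high cells, with a median of 0.09. Once the GC trend was removed, these counts were 4 and 3, then 5 and 5, and the median in GFP-low cells was 0.02. The methyl-CpG-binding family subunit MBD3 rose by log2 0.78 in GFP-low and 0.76 in GFP-high cells (adjusted p = 9.03e-56 and 5.35e-46, edgeR), or 0.28 and 0.43 with the trend removed, while MBD2, the alternative subunit, fell by 0.42 on the log2 scale in GFP-low cells (adjusted p = 2.12e-33, edgeR). The chromatin remodeller CHD5 fell in GFP-high cells, where its level was low: 1.82 ± 0.194 CPM with FX1, against 5.51 ± 0.757 CPM with DMSO (SD, n = 3 each; log2 -1.58, adjusted p = 4.66e-19, edgeR). Of 6 CoREST and MiDAC genes tested, 3 rose and 1 fell in GFP-low cells, and 3 rose and 2 fell in GFP-high cells (3 and 2, then 2 and 3, with the trend removed). RCOR1, the CoREST scaffold, fell by 0.25 and 0.26 on the log2 scale in GFP-low and GFP-high cells (adjusted p = 3.06e-14 and 4.25e-16, edgeR), TRERF1 rose by 0.62 in GFP-low cells (adjusted p = 6.27e-16, edgeR) and DNTTIP1, a MiDAC scaffold, by 0.38 in GFP-high cells (adjusted p = 2.71e-08, edgeR).

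Partners of class IIa enzymes included 9 MEF2 and NCOR complex genes, of which 4 rose and 3 fell in each gate. The balance turned with the GC trend removed, to 3 rises and 4 falls in GFP-low cells and 2 rises and 4 falls in GFP-high cells, with medians of -0.21 and -0.12 in place of 0.06 and 0.07. The largest fall was in MEF2C, the MEF2 factor prominent in B cells, which measured 149 ± 3.21 CPM in GFP-low FX1, against 266 ± 0.647 CPM in GFP-low DMSO libraries, and 188 ± 2.55 CPM in GFP-high FX1, against 256 ± 0.718 CPM in GFP-high DMSO libraries (SD, n = 3 each). Its log2 fold changes were -0.83 ± 0.020 in GFP-low cells (SE, adjusted p = 5.37e-112, edgeR) and -0.45 ± 0.019 in GFP-high cells (adjusted p = 1.67e-62, edgeR), and -0.64 and -0.37 with the GC trend removed. GPS2, a subunit of the NCOR complexes, rose by log2 0.79 in GFP-low and 0.49 in GFP-high cells (adjusted p = 1.71e-11 and 3.19e-05, edgeR). Among 10 tested kinases that drive class IIa export, 7 rose and 3 fell in GFP-low cells, with a median log2 fold change of 0.33, and 6 rose and 3 fell in GFP-high cells, with a median of 0.22. The medians were 0.15 and 0.13 with the trend removed (6 rose and 3 fell, then 6 rose and 2 fell). MARK2 rose by log2 0.62 in GFP-low cells (adjusted p = 1.96e-47, edgeR) and PRKD2 by 0.63 in GFP-high cells (adjusted p = 4.5e-40, edgeR), or by 0.21 and 0.35 with the trend removed, while CAMK1D fell by 0.80 and 0.75 on the log2 scale in GFP-low and GFP-high cells (adjusted p = 3.21e-84 and 4.61e-74, edgeR). Of the 7 genes for 14-3-3 proteins, 1 rose and 4 fell in GFP-low cells, and 4 rose and 3 fell in GFP-high cells. With the trend removed, 3 rose and 2 fell in GFP-low cells, so the balance turned, and 4 rose and 2 fell in GFP-high cells. YWHAG rose by log2 0.22 and 0.61 in GFP-low and GFP-high cells (adjusted p = 6.81e-39 and 2e-118, edgeR), YWHAZ fell by 0.47 on the log2 scale in GFP-low cells (adjusted p = 7.33e-102, edgeR; -0.29 with the trend removed), and SFN was near the detection limit in GFP-high cells at 0.193 ± 0.0992 CPM with FX1, against 0.514 ± 0.0751 CPM with DMSO (SD, n = 3 each). Between gates, 6 of these 7 genes were lower in GFP-low cells and 0 higher under both treatments, with median log2 fold changes of -0.33 under FX1 and -0.24 under DMSO, against 0.08 and 0.03 over all genes. With the trend removed, 6 and 5 were lower, with medians of -0.20 and -0.14. As tested, 26.7% of all genes were lower in GFP-low cells under FX1 and 24.4% under DMSO. Other lists tilted between gates too, so this was not particular to 14-3-3 genes. Under DMSO, 10 of 15 Sin3 genes were lower and 1 higher, and 8 of 11 NuRD genes were lower and 2 higher. Of 7 sirtuins, 6 were higher and 1 lower.

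The NAD-dependent deacetylases and the opposing acetyltransferases were followed beside the members. Of 7 sirtuins, 5 rose and 1 fell in GFP-low cells, and 5 rose and 0 fell in GFP-high cells, with median log2 fold changes of 0.43 and 0.35. With the GC trend removed the counts were 5 and 1, then 3 and 1, and the medians 0.22 and 0.43. SIRT6, a chromatin-bound sirtuin, measured 23.7 ± 1.62 CPM in GFP-low FX1, against 13.6 ± 0.242 CPM in GFP-low DMSO libraries (SD, n = 3 each; log2 0.79, adjusted p = 1.12e-25, edgeR). In GFP-high cells SIRT6 measured 19.7 ± 0.105 CPM with FX1, against 10.3 ± 0.541 CPM with DMSO (SD, n = 3 each; log2 0.93, adjusted p = 8.34e-29, edgeR), and with the GC trend removed its log2 fold changes were 0.36 and 0.63. The mitochondrial SIRT5 fell by 0.15 on the log2 scale in GFP-low cells (adjusted p = 0.00372, edgeR). Of 10 histone acetyltransferases, 7 rose and 2 fell in GFP-low cells, and 5 rose and 2 fell in GFP-high cells. With the trend removed, 5 rose and 4 fell, then 4 rose and 3 fell, with medians of 0.05 and -0.03, against 0.06 and 0.03 over all genes. CREBBP, a coactivator often mutated in B-cell lymphoma, rose by log2 0.76 and 0.73 in GFP-low and GFP-high cells (adjusted p = 2.37e-89 and 1.9e-84, edgeR), and by 0.42 and 0.52 with the GC trend removed. HAT1, which acetylates newly made histone H4, fell by 0.46 on the log2 scale in GFP-low cells (adjusted p = 1.11e-34, edgeR; -0.26 with the trend removed), and KAT6B by 0.47 in GFP-high cells (adjusted p = 1.43e-41, edgeR). No list was tested as a set, and the shares of all genes given above are the background for these counts.

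The genes closest in pattern to the most variable class I and class IIa members were sought among 9503 protein-coding genes by Pearson correlation of log2 CPM over the 12 libraries, which share group, line and scaling. For HDAC2 they were PCNA, the replication clamp, YBX1 and HNRNPH3, all at 0.997. For HDAC9 they were KIF14, a mitotic kinesin, at 0.997, and BIRC3 and SEC24A at 0.996. Such values were common: 1354 genes correlated above 0.9 with HDAC2 and 1401 with HDAC9. PCNA averaged 92.1 CPM in GFP-low FX1, 155 CPM in GFP-low DMSO, 145 CPM in GFP-high FX1 and 252 CPM in GFP-high DMSO libraries. BIRC3 averaged 480.1 CPM, 1048 CPM, 679.96 CPM and 1209 CPM in the same groups in that order.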

How the data were processed

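Total RNA of 12 Raji libraries, 3 per group, was made into libraries with a KAPA RNA HyperPrep kit after ribosomal depletion (per the labels). FastQC, STAR, featureCounts of Subread and R 4.2.1 with genome build hg38 are named, per the submitters' processing notes, while the strand setting and annotation release are not given in the sources used here, so overlapping and antisense genes are uncertain. What the authors deposited, per the file headers, is a table of raw read counts for each gene. Of 60710 lines, 3 formed a broken gene record and were left out, 60506 of 60707 genes (99.7%) had a symbol, and 0 count columns lacked a sample. Without molecular identifiers, reads cannot be taken as independent molecules.

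The tests used edgeR 4.0.16 under R 4.3.3: filterByExpr left 17859 genes, libraries were scaled by TMM, and a robust quasi-likelihood model with a term per group was fitted to all 12 libraries (8 residual degrees of freedom, biological coefficient of variation 1.67%). A total of 5 comparisons were made, with Benjamini-Hochberg adjustment over all genes at 0.05, and glmTreat with a floor of 1.5-fold gave a second call. The SE of a log2 fold change was derived as its absolute value divided by the square root of edgeR's quasi-likelihood F statistic. It is unstable for values near 0. CPM compares groups, and TPM, on merged exon length, compares genes. The GC content and length trend was fitted per library with mgcv 1.9.3 and removed for 17557 genes. Replicate libraries differed by 1.70 to 2.02 times the Poisson variance, and each was treated as a separate library. That spread does not show that they came from separate cultures. The pipeline was tested on simulated data in which few genes changed, in the GFP-low FX1 group alone, and no GC trend was present. Most genes were called in the real data, so the simulation does not test the scaling or the GC trend under those conditions.

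The members and the 8 lists of related genes were chosen with earlier results of these data known. The text names all members, the called gene of each related list with the largest change in each direction in each FX1 comparison, and the 3 genes closest in pattern to the most variable class I and class IIa member. DESeq2 1.42.0 and its size factors, other filters and scalings, fits of the compared groups alone, a replicate term and fits without each library were alternatives. Upstream sequences came from RefSeq (GRCh38.p14), where 9 of 10 members had an entry and HDAC5 did not.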

Additional observations from a re-analysis of the deposited data

Results flagged for a closer look

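The FX1 effect differed between the GFP gates, in edgeR's quasi-likelihood test of the difference (GFP-low minus GFP-high, log2), for 5 members. HDAC7 differed by 0.33 (adjusted p = 7.23e-14), with log2 fold changes of -0.37 in GFP-low and -0.70 in GFP-high cells. HDAC6 differed by 0.35 (adjusted p = 2.88e-06), with -0.55 in GFP-low and -0.90 in GFP-high cells. HDAC9 differed by -0.28 (adjusted p = 2.43e-07), with -0.95 in GFP-low and -0.67 in GFP-high cells. HDAC4 differed by -0.29 (adjusted p = 0.0185), with 0.63 in GFP-low and 0.91 in GFP-high cells. HDAC10 differed by 0.40 (adjusted p = 0.0461), with 1.10 in GFP-low and 0.70 in GFP-high cells, and shares exons with MAPK12, which differed by 0.46 (adjusted p = 6.56e-19). With the GC trend removed, HDAC10 differed by 0.24 (adjusted p = 0.298, edgeR) and MAPK12 by 0.27 (adjusted p = 2.51e-08, edgeR). The sizes of these differences also depended on the scaling. In TPM the log2 ratios in GFP-low and GFP-high cells were -0.34 and -0.43 for HDAC7, and -0.52 and -0.64 for HDAC6.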

How the results depend on the processing

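Each of the 50 member fold changes (10 members in 5 comparisons) was recomputed under the alternatives. With the GC content and length trend removed, 35 kept their direction and side of the threshold, 5 lost and 3 gained a call, and 7 changed sign. These were HDAC4 (-0.147) and HDAC7 (-0.0584) between gates under FX1, HDAC1 (0.0409) and HDAC6 (-0.0585) between gates under DMSO, and HDAC2 (0.1303), HDAC5 (-0.001) and HDAC11 (-0.113) in the difference of the FX1 effect; before, HDAC7 alone of them was called, and after, HDAC4 and HDAC2. The numbers called were then 9 and 8 members for FX1 in GFP-low and GFP-high cells, of which 3 and 3 passed the 1.5-fold floor. The members past the floor were not the same as before. In GFP-low cells HDAC10, at log2 0.54, was no longer among them. In that fit 66.4% and 68.9% of 17557 genes were called in GFP-low and GFP-high cells. DESeq2 kept 47 of 49 values that had an adjusted p, its size factors in edgeR 49 of 50, no low-count filter 46 of 50, at least 50 counts in 3 libraries 40 of 45, scaling without mitochondrial and very abundant genes 44 of 50, and fits of the compared groups alone 33 of 36. The sign changes among these were in values near 0 that were not called: HDAC1 between gates under FX1 (-0.0149 with the compared groups alone, -0.0192 with the changed scaling) and under DMSO (0.0043 with no filter, 0.0061 with the stricter one), and, in the difference of the FX1 effect, HDAC2 (0.012 with the stricter filter) and HDAC1, HDAC8 and HDAC11 (-0.0078, -0.0281 and -0.0146 with the changed scaling). HDAC8 between gates under FX1 was lost with DESeq2, with the compared groups alone and with the changed scaling, and HDAC10 in the difference of the FX1 effect with 5 alternatives beside the left-out libraries. The 1.5-fold count between gates under FX1 was 1 member at a minimum of 50 counts, against 0. Leaving out 1 library kept 558 of 600 values; that count ranged from 0 to 1 and members called for the difference from 3 to 5. Signs changed in HDAC1 between gates under FX1 (-0.0245 to 0.0424) and in the difference for HDAC1 (-0.0198 to 0.0513), HDAC8 (-0.0462 to 0.0403) and HDAC11 (-0.4193 to 0.5297). With the longest transcript as length, class IIa held 18.4% of class I and IIa TPM in GFP-low FX1, 20.3% in GFP-low DMSO, 16.5% in GFP-high FX1 and 19.9% in GFP-high DMSO libraries, and overlapping neighbours in the order of levels numbered 2 against 0 in GFP-low FX1 and 0 against 1 in GFP-high DMSO. Same-numbered libraries did not deviate together (correlations -0.037 to 0.018). Whether the numbers pair libraries by culture or sort cannot be told from this, because paired libraries need not share a deviation. With the replicate block all 50 values stayed on the same side of the threshold, with 9 members called for FX1 in each gate, and the uncalled HDAC11 value in the difference changed sign (-0.0315). HDAC11 had 2 to 22 counts per library, and its standard errors were the largest of the members.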
